A study of Mus musculus with 2 samples.

Results

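Laminins are the cross-shaped proteins on which basement membranes are built. Each is a trimer of 1 alpha, 1 beta and 1 gamma chain, secreted as a unit, and the alpha chain carries most of the binding sites for integrins and for dystroglycan. In the spinal cord, laminin lies under the pia, around blood vessels and beneath the astrocyte endfeet that meet both, and after injury it is also deposited in the fibrotic scar. The 9 genes described here are 5 alpha chain genes (Lama1, Lama2, Lama3, Lama4, Lama5), 2 beta chain genes (Lamb1, Lamb2) and 2 gamma chain genes (Lamc1, Lamc3), taken by name from the 32285 features of both count matrices. All 9 were present in both.

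The nuclei came from spinal cords of male mice labelled iNeuroD1GFP, whose transgene for the proneural factor NeuroD1 is switched on by tamoxifen. The injury was made at postnatal day 60 (the age label is 8 weeks), tamoxifen followed on days 5 to 8 after it (100 mg/kg/day), and 3 mice were used on day 10. The labels do not give the promoter that drives the transgene, and every sample carries the same genotype and treatment, so there is no untreated, uninjured or wild-type group. There were 2 single-nucleus 3′ libraries of 10x Genomics chemistry, 1 of the injury core and 1 of the region the titles call distal and the extraction protocol calls peri-injury, with no replicate of either and no statement of whether the mice were pooled. No p-value is therefore given, and every interval below is an exact 95% interval that covers counting error only, not differences between animals or dissections.

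The core library held 16362 barcodes with a median of 1303 UMIs (unique molecules) each, and the distal library 7452 barcodes with a median of 1743. Classes were named from marker genes after a clustering in which no laminin gene was used. They held 115 core and 443 distal fibroblast nuclei, 59 and 83 endothelial nuclei, 79 and 628 astrocyte nuclei, and 7492 and 1322 neurons. Clusters without a safe name held 52.1% of core and 31.7% of distal nuclei, among them 6326 core barcodes whose profiles varied little more than random draws from 1 shared profile, called background-like here. All 10 endothelial, 10 astrocyte and 9 neuron markers were detected in their classes in both libraries, and the 9 fibroblast markers in theirs except Lum, which was at 0 in the core. The distal library also held 92 nuclei led by liver genes such as Alb. Markers of 1 class were also found in others, and free RNA and doublets cannot be told apart as their source. The 9 neuron markers summed to 2298 CPM (the usual scaling of counts to the total of the class) in core fibroblasts and 973 CPM in distal fibroblasts, against 3462 CPM in core neurons and 3451 CPM in distal neurons. The 8 oligodendrocyte markers summed to 257 CPM in core neurons and 2089 CPM in distal neurons. The 2 libraries shared 38 barcode sequences.

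On the GRCm38 build, GENCODE M21 places Lama1 at chr17:67697259-67822647 on the plus strand and Lama2 at chr10:26980036-27619758 on the minus strand. Lama4 is at chr10:38965515-39110188 on the plus strand and Lama5 at chr2:180176373-180225859 on the minus strand. Lamb1 is at chr12:31265234-31329644 and Lamb2 at chr9:108479736-108490530, both on the plus strand. Lamc1 is at chr1:153218922-153332786 on the minus strand and Lamc3 at chr2:31887291-31946539 on the plus strand.

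The gene of Lama2 spans 639723 bases and that of Lamb2 10795 bases, and with such different lengths levels are compared below between classes for 1 gene and never between genes. Antisense genes that have features of their own overlap Lama2, Lama3 and Lamc3, and the labels do not say how reads in such overlaps were assigned.

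Lama2 and Lama5 had class patterns that differed in the results below, and the 250 bases before their RefSeq starts are shown for that reason. The RefSeq table on GRCm38.p6 held such a window for 4 of the 9 genes. Capitals mark the letters GGGCGG or their complement CCGCCC (a GC box).
Lama2, chr10:27616943-27617192, minus strand: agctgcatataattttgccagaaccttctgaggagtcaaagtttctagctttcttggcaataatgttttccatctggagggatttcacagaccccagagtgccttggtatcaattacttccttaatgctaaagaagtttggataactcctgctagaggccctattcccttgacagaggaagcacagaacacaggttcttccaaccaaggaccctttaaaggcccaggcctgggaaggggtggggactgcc
Lama5, chr2:180225860-180226109, minus strand: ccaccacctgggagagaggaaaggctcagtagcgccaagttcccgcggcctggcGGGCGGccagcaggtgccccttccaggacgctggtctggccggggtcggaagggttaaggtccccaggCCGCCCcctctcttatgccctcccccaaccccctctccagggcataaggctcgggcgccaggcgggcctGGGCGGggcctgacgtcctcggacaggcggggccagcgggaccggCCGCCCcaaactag
The Lama5 window held 4 GC boxes on either strand and 72.4% G or C, and the Lama2 window held 0 and 47.2%. Of all 32851 windows of that length in the table, 32.7% held at least 1 GC box, and the median G or C content was 52.4%. Neither window held TATAAA or TTTATA, which 12.4% of all windows did, nor CCAAT or ATTGG, which 33.8% did. GENCODE M21 starts the Lama2 gene upstream of this window. These matches describe letters and name no site in use.

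Lama2, the alpha chain of the laminin of muscle, nerve and vessel walls whose loss causes a congenital muscular dystrophy, was found in fibroblasts and astrocytes of both libraries at several times the neuronal level. Fibroblasts had 206 CPM in the core (30 UMIs, interval 139 to 294) and 360 CPM in the distal library (197 UMIs, 312 to 414). Astrocytes had 13 UMIs in the core (53.7 to 173 CPM) and 258 CPM in the distal library (328 UMIs, 231 to 288). Endothelial nuclei had 169 CPM in the core (18 UMIs) and 76.3 CPM in the distal library (9 UMIs), and neurons were lowest in both, at 8.95 CPM in the core and 27.5 CPM in the distal library. In the distal library the order was fibroblasts, astrocytes, endothelium and neurons, with no overlap of neighbouring intervals, although astrocytes over fibroblasts, at 0.717 (0.599 to 0.861), stayed under a 1.5-fold difference. In the core the intervals of fibroblasts, endothelium and astrocytes overlapped, and only neurons stood apart. Lama2 UMIs were found in 33.9% of distal astrocytes and 5.67% of distal neurons. After thinning each nucleus to 1000 UMIs those shares were 24.2% and 2.83%. In distal myeloid nuclei the share was 6.86%, and 7.32% thinned, at a median of 849 UMIs against 1440.5 in the astrocytes and 2063.5 in the neurons. The class-wide neuronal share did not exceed the myeloid one. Oligodendrocyte markers summed to 4091 CPM in distal myeloid nuclei and 2089 CPM in distal neurons, so the myeloid share is no clean measure of background. Whether either share is expression was not tested. A neuron cluster described below had more Lama2 than the class as a whole.

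Lama1, the alpha chain of the pial and early embryonic basement membrane, was highest in fibroblasts in both libraries, but in the core on few UMIs. It had 54.9 CPM in core fibroblasts (8 UMIs in 3 nuclei) and 152 CPM in distal fibroblasts (83 UMIs in 54 nuclei). Endothelial nuclei had 9.40 CPM in the core (1 UMI) and 59.4 CPM in the distal library (7 UMIs). Astrocytes had 23.3 CPM and 9.45 CPM in core and distal nuclei, and neurons 13.3 CPM and 11.3 CPM. The distal fibroblast interval, 121 to 188, lay above those of astrocytes and neurons and overlapped that of the endothelium, which ends at 122, although the ratio of endothelium to fibroblasts, 0.391 (0.153 to 0.843), passed the rule for calls given below. In the core only fibroblasts and neurons were apart, and the ratio of core fibroblasts to core neurons was 0.614 with each nucleus classed on its own, and core fibroblasts had 0 UMIs after thinning.

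Lama4, an alpha chain of endothelial basement membranes that lacks the arm used for self-assembly, was shared by fibroblasts and endothelium. Fibroblasts had 75.5 CPM in the core (11 UMIs) and 119 CPM in the distal library (65 UMIs), and endothelial nuclei had 75.2 CPM (8 UMIs) and 102 CPM (12 UMIs). Astrocytes had 7.76 CPM in the core (1 UMI) and 9.45 CPM in the distal library (12 UMIs), and neurons 8.72 CPM and 20.2 CPM. Fibroblasts and endothelium did not differ beyond counting error in either library, with endothelial over fibroblast ratios of 0.996 (0.348 to 2.72) in the core and 0.857 (0.421 to 1.60) in the distal library.

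Lama5, the alpha chain of mature capillaries and many epithelia, was an endothelial transcript in the distal library. Distal endothelial nuclei had 67.9 CPM from 8 UMIs in 8 nuclei, and core endothelial nuclei 18.8 CPM from 2 UMIs. Fibroblasts had 6.86 CPM in the core (1 UMI) and 5.48 CPM in the distal library (3 UMIs), astrocytes 7.76 CPM (1 UMI) and 6.30 CPM (8 UMIs), and neurons 1.95 CPM (34 UMIs) and 0.918 CPM (3 UMIs). Distal endothelium over distal fibroblasts gave a ratio of 12.4 (2.97 to 72.4), and the 350 distal myeloid nuclei held 0 Lama5 UMIs, which allows up to 7.21 CPM. The 3 fibroblast UMIs and the 8 endothelial UMIs on which that ratio rests are few.

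Lama3, the alpha chain of the laminin that anchors skin epithelium, had at most 50.9 CPM in the 4 classes. Fibroblasts had 27.4 CPM in the core and 16.5 CPM in the distal library, endothelial nuclei 9.40 CPM and 50.9 CPM, astrocytes 7.76 CPM and 7.09 CPM, and neurons 15.5 CPM and 6.42 CPM. Among these classes it reached 10 UMIs in neurons alone, with 270 in the core and 21 in the distal library. Myeloid nuclei had 37.3 CPM in the core and 21.6 CPM in the distal library, and the interval of each of the 4 classes except distal neurons, which were lower, overlapped the myeloid interval of its library. An unnamed cluster led by Hbb-bs, Hba-a1 and Hba-a2 had 91.4 CPM of Lama3 in its 71 core nuclei (20 UMIs, 55.8 to 141). Its 801 distal nuclei had 20.6 CPM (46 UMIs).

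The beta chains were sparse. Lamb2, the beta chain of synaptic and vascular laminins, had 20.6 CPM in core fibroblasts (3 UMIs) and 32.9 CPM in distal fibroblasts (18 UMIs), 37.6 CPM and 42.4 CPM in endothelial nuclei (4 and 5 UMIs), 7.76 CPM and 7.88 CPM in astrocytes, and 0.230 CPM and 2.45 CPM in neurons (4 and 8 UMIs). Lamb1, the widely used beta chain, did not share this order in distal nuclei, with 11 CPM in fibroblasts (6 UMIs), 8.48 CPM in endothelium (1 UMI) and 4.73 CPM in astrocytes (6 UMIs), against 15.9 CPM in neurons (52 UMIs). In the core it had 56.4 CPM in endothelium (6 UMIs), 0 UMIs in fibroblasts, which allows up to 20.6 CPM, and 9.41 CPM in neurons. With 3 counts set for the fibroblast 0, core endothelium over core fibroblasts gave a ratio of 2.74 for Lamb1. That value leaves out the counting error of the 6 endothelial UMIs and is not a lower limit.

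Lamc1, the gamma chain of nearly all laminins, was detected in all 4 classes of both libraries. Fibroblasts had 171 CPM in the core (25 UMIs, 111 to 253) and 280 CPM in the distal library (153 UMIs, 237 to 328). Endothelial nuclei had 169 CPM and 153 CPM (18 UMIs each), astrocytes 77.6 CPM and 86.7 CPM (10 and 110 UMIs), and neurons 64.6 CPM and 38.8 CPM (1125 and 127 UMIs). In the distal library fibroblasts were highest, with endothelium at 0.546 (0.315 to 0.892) of their level, endothelium and astrocytes overlapped, and neurons were lowest and below the 62.5 CPM of myeloid nuclei. In the core, neurons were close to the 56.0 CPM of background-like barcodes.

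Lamc3, a gamma chain of few known laminins, was found mainly in fibroblasts and mural nuclei. In endothelium it was found only in nuclei that also held a UMI of a mural marker, as described below. Lamc3 had 34.3 CPM in core fibroblasts (5 UMIs) and 69.5 CPM in distal fibroblasts (38 UMIs in 29 nuclei), 37.6 CPM and 17.0 CPM in endothelial nuclei (4 and 2 UMIs), 0 UMIs and 3.94 CPM in astrocytes, and 0.230 CPM and 2.14 CPM in neurons (4 and 7 UMIs). The 79 core astrocytes are few, and a low level there could not be told from 0. The distal fibroblast interval, 49.2 to 95.3, lay above those of distal astrocytes and neurons, and endothelium was at 0.244 (0.0285 to 0.945) of the fibroblast level.

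**Figure D1:**
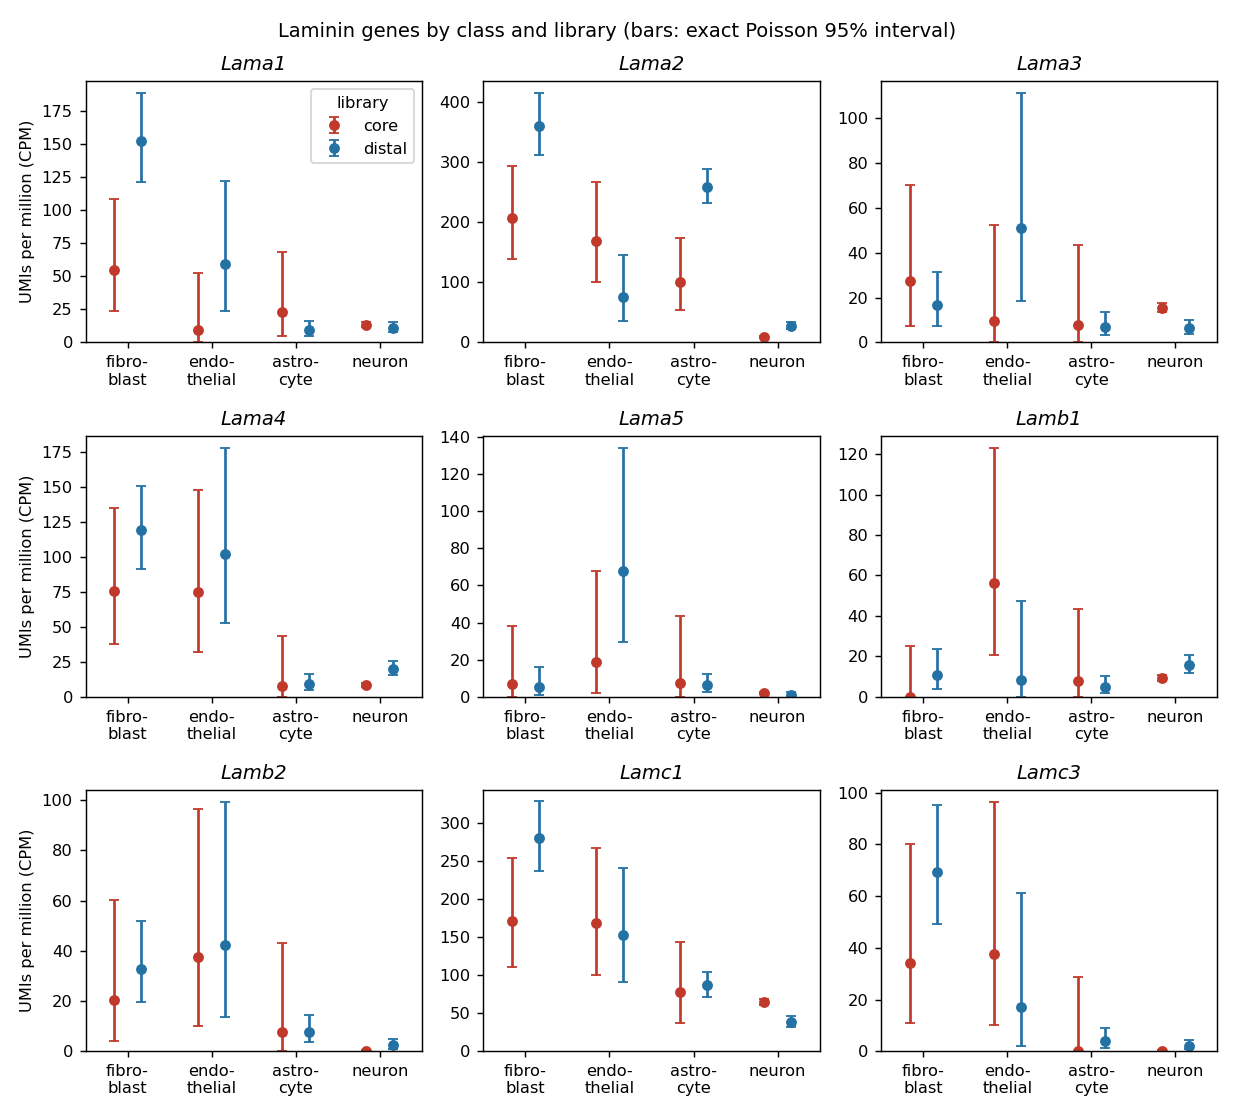
Level of each of the 9 laminin genes in 4 classes, as CPM of the class sum, with core (red) left of distal (blue). Points are class sums of 1 library and bars are exact Poisson intervals. Lama2 is high in fibroblasts and astrocytes and Lama5 in distal endothelium (67.9 CPM), while neurons have the lowest point of the 4 distal classes for Lama2, Lama3, Lama5, Lamb2, Lamc1 and Lamc3.

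Set against neurons of the same library, the laminin genes were mostly higher in fibroblasts and endothelium and mostly not in astrocytes. The 9 genes summed to 597 CPM and 1046 CPM in core and distal fibroblasts, 583 CPM and 577 CPM in endothelium, 241 CPM and 394 CPM in astrocytes, and 123 CPM and 126 CPM in neurons. Background-like core barcodes had 120 CPM, close to the neurons. A gene was counted where it had at least 10 CPM in 1 of the 2 class sums, and called higher or lower where its interval excluded 1 and the fold was 1.5 or more. A gene under 10 CPM in neurons was thus counted only through the other class and could not be called lower. In the core these were Lama2, Lama4, Lamb2 and Lamc3 for fibroblasts, the same with Lama5 and Lamb1 for endothelium, and Lama2 for astrocytes. In the distal library they were Lama3, Lamb2 and Lamc3 for fibroblasts, and the same with Lama5 for endothelium. Likewise, a gene under 10 CPM in the other class was counted only through neurons and could not be called higher. The shares over all genes follow the same rule. Fibroblasts over neurons gave 6 members higher and 0 lower of 7 counted in the core, where 13.1% of all 10422 counted genes were higher and 3.78% lower. In the distal library 7 were higher and 0 lower of 8 counted, where 29.0% of all 11133 counted genes were higher and 13.7% lower. The median log2 ratio of the counted members was 3.17 in the core and 3.27 in the distal library, beside 0.27 and 0.39 over all counted genes. Lama2 was 23.0-fold (15 to 34.1) and 13.1-fold (10.1 to 17.0) higher in fibroblasts in the core and the distal library, Lama4 8.65-fold (4.23 to 15.9) and 5.89-fold (4.11 to 8.42), and Lamc1 2.66-fold (1.71 to 3.94) and 7.20-fold (5.65 to 9.18). Lamc3 was 149-fold (32.2 to 753) and 32.4-fold (14.3 to 86.1) higher, on 4 and 7 neuronal UMIs. Lamb1 did not pass in the distal library, at 0.690 (0.242 to 1.60). With nuclei thinned to 1000 UMIs, which left 50 of the 115 core fibroblasts, the core count was 3. No share over all genes is given for thinned nuclei.

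Endothelium over neurons gave 7 members higher and 0 lower of 9 counted in each library, where 17.8% of 10222 genes were higher and 7.97% lower in the core, and 18.9% of 10941 were higher and 8.24% lower in the distal library. The median log2 ratio was 3.19 in the core and 2.47 in the distal library, beside 0.29 and 0.39 over all counted genes. The members differed between the libraries. Lama5 was 9.63-fold (1.12 to 37.6) and 74.0-fold (17.8 to 433) higher than in neurons in the core and the distal library, Lama4 8.62-fold (3.65 to 17.4) and 5.04-fold (2.48 to 9.41), and Lamb2 164-fold (30.5 to 879) and 17.3-fold (4.46 to 60.1). The core Lama5 ratio rested on 2 endothelial UMIs. Lamb1 passed only in the core, at 5.99-fold (2.17 to 13.3), and was 0.533 (0.0133 to 3.11) in the distal library. Lamc3 likewise passed only in the core, on 4 endothelial and 4 neuronal UMIs, and was 7.92 (0.803 to 41.6) in the distal library. Lama1 and Lama3 passed only in the distal library, at 5.25-fold (1.97 to 11.9) and 7.92-fold (2.62 to 20.3). Core over distal endothelium, described below, passed for none of these genes.

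In the core, Lama2 and Lamc3 in endothelium stood in nuclei that also held mural RNA. Mural cells (pericytes and smooth muscle) wrap the endothelium and share its basement membrane. Of the 59 core endothelial nuclei, 17 held a UMI of 1 of the 8 mural markers, and these held 17 of the 18 Lama2 UMIs, 15 of the 18 Lamc1 UMIs and 4 of the 4 Lamc3 UMIs. Lama2 had 349 CPM in these nuclei and 17.3 CPM in the other 42, and their median depth was 1784 UMIs against 1105.5. The part of depth in this was not tested. In the distal library 10 of 83 endothelial nuclei held a mural UMI, and these held 5 of 9 Lama2 UMIs, 4 of 18 Lamc1 UMIs and 2 of 2 Lamc3 UMIs. Without such nuclei, 4 members were higher than in neurons in the core (Lama4, Lama5, Lamb1 and Lamb2) and 6 in the distal library (Lama1, Lama3, Lama4, Lama5, Lamb2 and Lamc1), where 10.1% and 14.9% of all counted genes were higher. Lama2 was then 1.94 (0.0487 to 10.9) and 1.65 (0.440 to 4.37) times the neuronal level, and neither passed.

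The 27 distal nuclei classed as mural had the highest Lama2 level of any named class. They held 42 Lama2 UMIs in 16 nuclei, or 1317 CPM (949 to 1780), which was 3.66-fold (2.56 to 5.12) the level of distal fibroblasts, 17.2-fold (8.27 to 40.3) that of distal endothelium and 47.8-fold (32.3 to 69.7) that of distal neurons. Lamc1 was 2.02-fold (1.16 to 3.30) the fibroblast level, at 564 CPM (18 UMIs), and Lamc3 had 157 CPM (5 UMIs). Lama5 and Lama3 had 0 UMIs each in these nuclei, which allows up to 94.0 CPM. The mural markers summed to 3072 CPM there with 7 of 8 detected and Acta2 at 0. The core held only 5 mural nuclei, with 6 Lama2 UMIs in 2 of them.

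Astrocytes over neurons gave 1 member higher and 0 lower of 4 counted in the core, where 11.5% of 10153 genes were higher and 3.23% lower, and 2 higher and 2 lower of 5 counted in the distal library, where 26.9% of 10713 genes were higher and 15.4% lower. These shares are not far from those of all genes, and the result in astrocytes was that of single members. Lama2 was 11.3-fold (5.87 to 19.8) and 9.39-fold (7.41 to 12) higher than in neurons in the core and the distal library. Lamc1 was higher in the distal library alone, 2.23-fold (1.71 to 2.90), and 1.20 (0.575 to 2.22) in the core. Lama4 and Lamb1 were lower in distal astrocytes than in distal neurons, at 0.468 (0.230 to 0.874) and 0.297 (0.104 to 0.692). Both were under 10 CPM in these astrocytes, were counted only through neurons and could not be called higher. Against distal myeloid nuclei, astrocyte Lama2 was 4.48-fold (2.96 to 7.1) higher while Lamc1 did not pass, at 1.39 (0.898 to 2.22). The Lama2 intervals of the astrocyte clusters of the distal library overlapped, with 255 CPM in cluster 14, led by Gfap and A2m, and 266 CPM in cluster 18, led by Trp63 and Slc7a10.

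**Figure D2:**
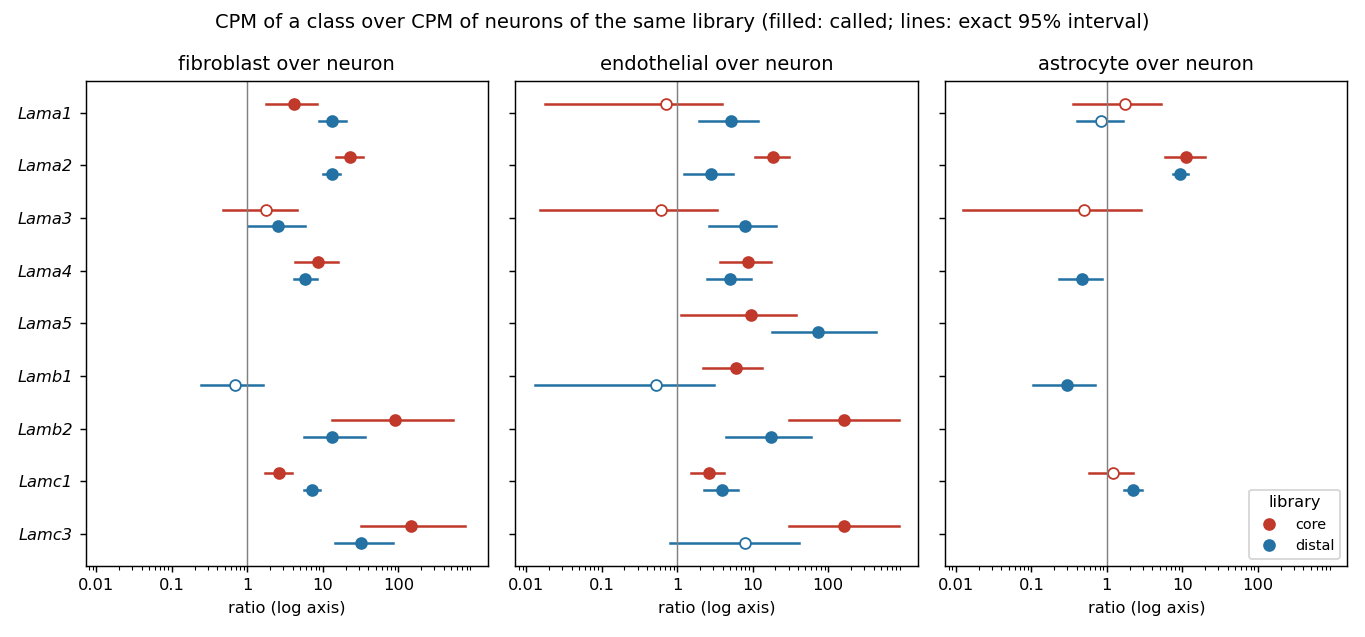
Ratio of the CPM of fibroblasts, endothelium and astrocytes to that of neurons of the same library, on a log axis, with core (red) above distal (blue). Filled points were called and open points were not, lines are exact 95% intervals, and members not counted or at 0 in the class are not drawn. Fibroblasts and endothelium lie right of 1 for most members, and astrocytes for Lama2 (11.3 and 9.39) and distal Lamc1.

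The make-up of the alpha chains, given as the share of 1 gene among the UMIs of all 5 alpha chain genes and compared only between classes, separated the classes further. Lama2 took 68.4% of alpha chain UMIs in core astrocytes (43.4 to 87.4) and 88.9% in distal astrocytes (85.2 to 91.9). It took 55.6% in core fibroblasts and 55.2% in distal fibroblasts (49.9 to 60.4), 60.0% in core endothelium (40.6 to 77.3) and 21.4% in distal endothelium (10.3 to 36.8), and 18.5% in core neurons and 41.5% in distal neurons (34.8 to 48.3). The distal astrocyte share thus lay above that of distal fibroblasts, and that above distal endothelium, with no overlap of intervals. Without endothelial nuclei that held a mural UMI, Lama2 took 12.5% in core endothelium (0.316 to 52.7, 1 of 8 UMIs) and 12.9% in distal endothelium (3.63 to 29.8). Lama5 took 19.0% of alpha chain UMIs in distal endothelium (8.6 to 34.1) and 0.840% in distal fibroblasts (0.174 to 2.44). Lama1 took 23.2% in distal fibroblasts (19.0 to 28.0) and 3.25% in distal astrocytes (1.69 to 5.61).

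**Figure D3:**
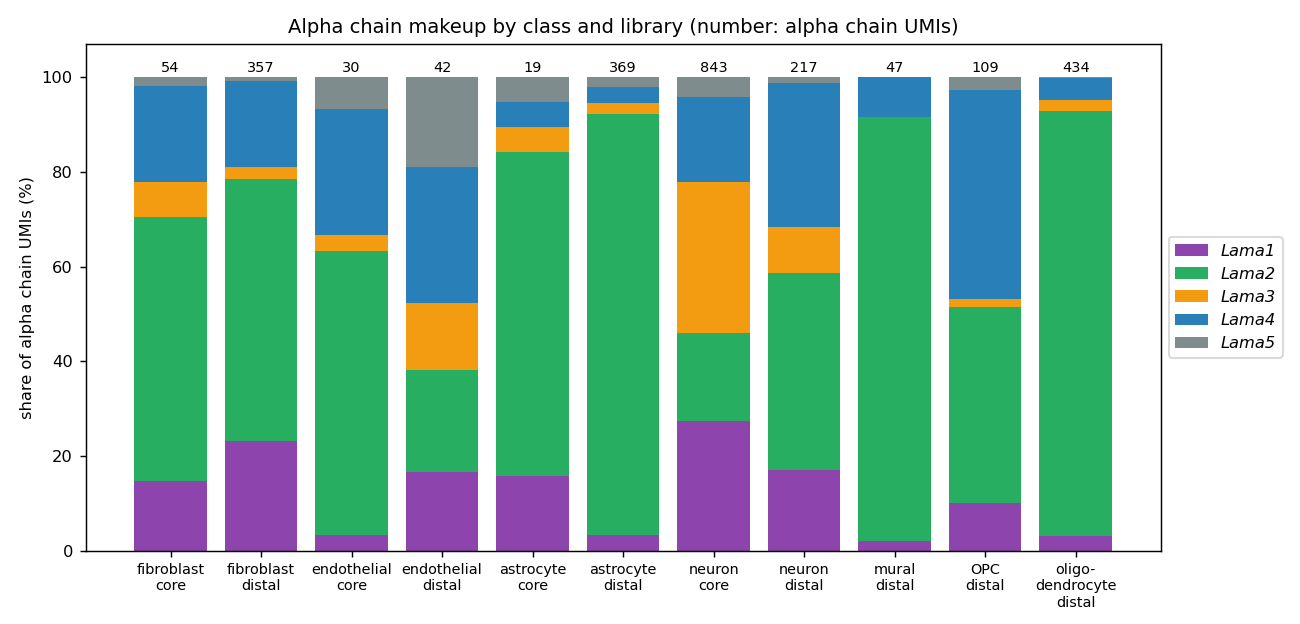
Share of each alpha chain gene among alpha chain UMIs (percent) in the 4 classes, core left of distal, and in distal mural nuclei, oligodendrocyte progenitors (OPC) and oligodendrocytes. The number above a bar is the count of alpha chain UMIs behind it. Lama2 fills most of the distal astrocyte (88.9%), mural (89.4%) and oligodendrocyte (89.9%) bars, and Lama5 shows most in distal endothelium (19.0%).

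Glia outside the 4 classes carried laminin UMIs as well. Distal oligodendrocytes had 108 CPM of Lama2 (390 UMIs) and 123 CPM of Lamc1 (443 UMIs), which was 1.88-fold (1.24 to 2.97) and 1.97-fold (1.33 to 3.05) the levels of distal myeloid nuclei. Distal oligodendrocyte progenitors stood out by Lama4, with 60.8 CPM (48 UMIs), 10.9-fold (6.37 to 19.5) the oligodendrocyte level and 3.01-fold (2.03 to 4.43) the neuronal level. Lama4 took 44.0% of their alpha chain UMIs (34.5 to 53.9) and 4.61% of those of oligodendrocytes (2.84 to 7.03).

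Among fibroblasts, the laminin genes differed between the pair of clusters that made up the class. Cluster 12 (377 distal nuclei) was led by Ranbp3l, Slc6a20a and Prdm6, and cluster 24 (66 distal nuclei) by Slc47a1, Tspan11 and Trabd2b. In the distal library Lama1 had 173 CPM in cluster 12 (81 UMIs) and 25.6 CPM in cluster 24 (2 UMIs), a ratio of 6.75 (1.81 to 56.7). Lamc3 had 81.0 CPM in cluster 12 (38 UMIs) and 0 UMIs in cluster 24. With only 66 distal nuclei, a low level in cluster 24 could not be told from 0. Lama2 was 1.66-fold (1.02 to 2.86) and Lamc1 1.96-fold (1.09 to 3.88) higher in cluster 12, while Lama4 did not differ beyond counting error, at 1.04 (0.509 to 2.38). Counted over the members, 4 were higher and 0 lower of 8 in cluster 12, where 2.82% of all 12398 counted genes were higher and 4.40% lower.

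Within single fibroblasts, chains of 1 trimer were seldom seen together at this depth. After thinning to 1000 UMIs, which kept 226 of 443 distal fibroblasts, Lamc1 was found in 38.3% of the 60 nuclei with Lama2 (26.1 to 51.8) and 19.3% of the 166 without (13.6 to 26.1). An alpha, a beta and a gamma chain were all seen in 1.77% of nuclei (0.484 to 4.47). In distal astrocytes Lamc1 was found in 5.45% of the 110 nuclei with Lama2 (2.03 to 11.5) and 9.28% of the 345 without (6.43 to 12.8), so that no excess of joint detection was seen there, and all 3 chains were seen together in 0 of 455 nuclei. Doublets were left in, and Lamc1 was found in 5.62% of thinned background-like core barcodes. Their part in these shares was not tested.

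Between the regions, the laminin genes were lower in core than in distal fibroblasts where they differed. Of 8 counted members 0 were higher and 3 lower, where 7.21% of all 11294 counted genes were higher and 6.18% lower. Lama1 was 0.362 (0.151 to 0.746), Lama2 0.571 (0.376 to 0.842) and Lamc1 0.613 (0.385 to 0.940) of the distal level. The other members had wide intervals, such as Lama4 at 0.635 (0.302 to 1.21) and Lamc3 at 0.494 (0.152 to 1.26). Other sums moved with this difference. The fibroblast markers that named the class were lower too, at 1989 CPM in the core and 2645 CPM in the distal library (0.752, 0.661 to 0.854), and neuron markers were higher, at 2298 CPM and 973 CPM. Per UMI of the fibroblast markers, Lama1 stayed lower in the core, at 0.481 (0.201 to 0.992), while Lama2, at 0.760 (0.499 to 1.12), and Lamc1, at 0.815, did not pass. Within cluster 12 alone Lama1 was 0.440 (0.184 to 0.910) and Lama2 0.623 (0.393 to 0.95), and Lamc1 did not pass, at 0.664 (0.399 to 1.05). The 8 core Lama1 UMIs came from 3 nuclei, and at 2-fold or after thinning only 1 member was called. No share over all genes is given for those settings.

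In astrocytes 1 of 3 counted members was lower in the core, where 8.83% of all 10889 counted genes were higher and 6.48% lower. It was Lama2, at 0.391 (0.206 to 0.677) of the distal level. The astrocyte markers differed by less than counting error, at 3773 CPM in the core and 3826 CPM in the distal library (0.986, 0.897 to 1.08), and per UMI of those markers Lama2 was 0.396 (0.209 to 0.687). Within cluster 18, which held 59 of the 79 core astrocytes, Lama2 was 112 CPM in the core and 266 CPM in the distal library, a ratio of 0.421 (0.197 to 0.804). Lamc1 did not differ beyond counting error, at 0.896 (0.418 to 1.71). Neuron markers in astrocytes summed to 2360 CPM in the core and 944 CPM in the distal library, and oligodendrocyte markers to 707 CPM and 5903 CPM. The part of either in the Lama2 difference was not tested.

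In endothelium 0 of 9 counted members were higher and 0 lower in the core, where 3.46% of all 10448 counted genes were higher and 3.34% lower. The counts were small and the intervals wide, so differences of several fold could not be seen. Lama2 was 2.22 (0.945 to 5.60), Lamb1 6.65 (0.806 to 306) and Lama5 0.277 (0.0286 to 1.39) of the distal level, and Lamc1 was 1.11 (0.544 to 2.26).

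Neurons had 2 members higher and 3 lower in the core of 6 counted, where 11.2% of all 9678 counted genes were higher and 14.5% lower. Lama2, Lama4 and Lamb1 were under 10 CPM in core neurons, were counted only through the distal library and could not be called higher. In the same way Lama3, under 10 CPM in distal neurons, could not be called lower. Lama3 was 2.41-fold (1.55 to 3.96) and Lamc1 1.66-fold (1.38 to 2.01) higher, and Lama2 was 0.325 (0.249 to 0.426), Lama4 0.432 (0.322 to 0.586) and Lamb1 0.592 (0.431 to 0.825) of the distal level. The calls in the higher direction, and that of Lamb1, depended on the clustering. At a resolution of 2.0, Lama3 was 1.36 (1.03 to 1.82) and Lamc1 1.24 (1.09 to 1.41), and with each nucleus classed on its own 1.02 (0.764 to 1.37) and 1.13 (0.981 to 1.31), and none of these passed. Lamb1 was 0.784 (0.593 to 1.05) at that resolution and 1.04 with each nucleus classed on its own. Thinned to 1000 UMIs, Lama3 lost its call, at 1.95 (0.949 to 4.65), and so did Lamb1, at 0.638 (0.375 to 1.14). Set against background-like core barcodes, core neurons passed for Lama2 alone of these genes. Lama3 was 1.21 (0.942 to 1.57), Lamc1 1.15 (1.02 to 1.30), Lama4 0.931 (0.686 to 1.28) and Lamb1 0.861 (0.647 to 1.16) of the background-like level, and Lama2 was below it, at 0.623 (0.479 to 0.816). Thinned to 1000 UMIs, Lamc1 was found in 5.81% of core neurons and 5.62% of background-like barcodes. The neuron markers of those barcodes summed to 3276 CPM, close to the 3462 CPM of core neurons, so that this comparison cannot tell neuronal RNA inside nuclei from that outside them. In the distal library Lama2, Lama3 and Lamc1 were lower in neurons than in myeloid nuclei, at 0.477 (0.302 to 0.783), 0.297 (0.130 to 0.737) and 0.622 (0.405 to 0.988). Lama4 and Lamb1 in distal neurons were 3.63-fold (2.18 to 6.33) and 3.37-fold (1.92 to 6.21) the level of distal oligodendrocytes, but against myeloid nuclei neither passed, with Lama4 at 2.10 (0.783 to 7.94) and Lamb1 at 1.32 (0.533 to 4.25).

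**Figure D4:**
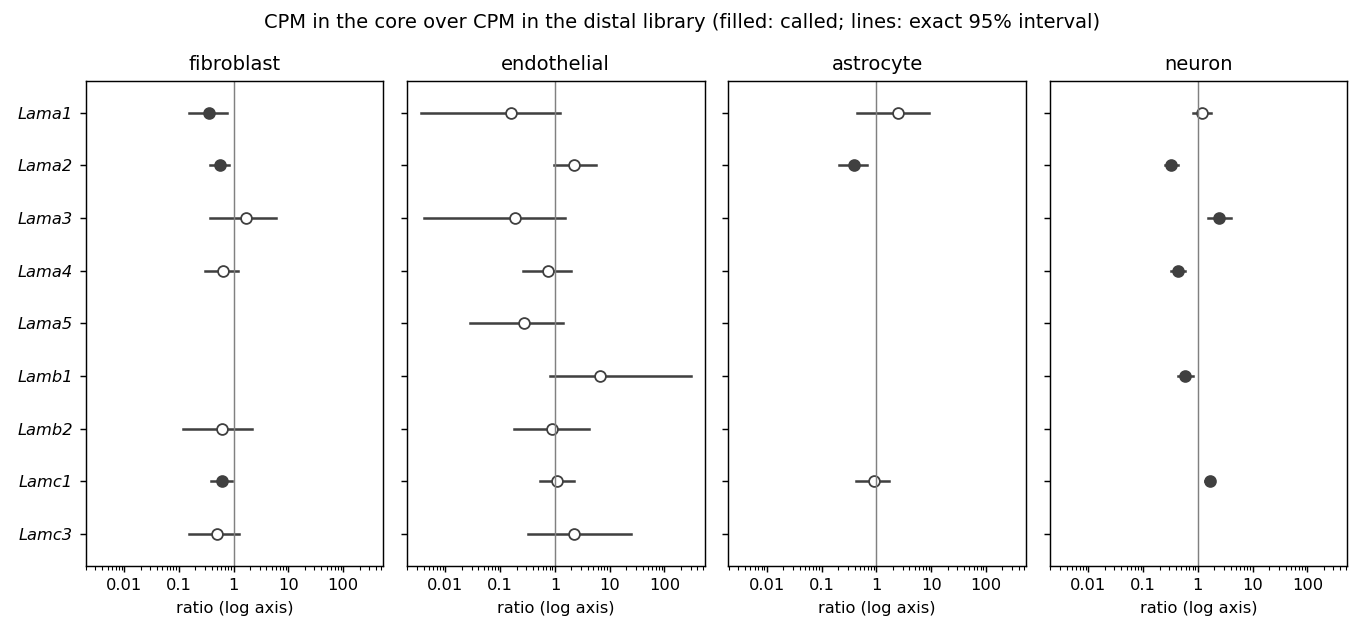
Ratio of core to distal CPM of each member in fibroblasts, endothelium, astrocytes and neurons, on a log axis. Filled points were called, lines are exact 95% intervals, and members not counted or at 0 in the core are not drawn. Lama2 lies left of 1 in fibroblasts (0.571), astrocytes (0.391) and neurons (0.325), and Lamc1 lies left of 1 in fibroblasts (0.613) and right of 1 in neurons (1.66).

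Lama4 and Lamb1 were spread unevenly over the neuron clusters. Cluster 7, led by Casz1, Atp10a and Tnfaip8l3, had 35 Lamb1 UMIs in the core (20.9 to 41.8 CPM) and 48.0 CPM in the distal library (30.4 to 72.0), against 7.58 CPM (6.04 to 9.38) and 9.44 CPM (1.14 to 34.1) in cluster 1. The core intervals of these clusters were apart, while the distal ones overlapped, with only 2 Lamb1 UMIs in distal cluster 1. Lama4 in cluster 7 had 24.9 CPM and 35.5 CPM, and in cluster 5, led by Myo5b, Unc5cl and Lmo3, 16.6 CPM and 39.9 CPM, while cluster 1 had 4.78 CPM and 4.72 CPM. Cluster 13, led by Gucy2d, Hmga2 and Col6a1, had 38.1 CPM of Lama1 in the core (24.6 to 56.2) and 24.9 CPM in the distal library (8.08 to 58.1), where cluster 1 had 37.8 CPM (16.3 to 74.4). It had 45.7 CPM (30.8 to 65.2) and 79.7 CPM (45.5 to 129) of Lama2, and its core intervals of both genes lay above those of each of the 5 other clusters compared. An unnamed cluster led by Cpne4 had 47.1 CPM of both Lama4 and Lamb1 in its 112 core nuclei. In its 62 distal nuclei it had 63.7 CPM of Lama4 and 70.0 CPM of Lamb1. Its highest marker score was that of neurons, but it stayed unnamed because the fibroblast marker Bnc2 was among its leading genes.

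The mix of clusters differed between the regions, cluster 1 holding 4324 of 7492 core neurons and 58 of 1322 distal ones. Within the 6 clusters that had at least 50 nuclei in both libraries, a ratio pooled over clusters kept 3 of the 5 calls. Lama2 was 0.415 (0.294 to 0.588), Lama3 2.07 (1.21 to 3.54) and Lamc1 1.5 (1.20 to 1.88), while Lama4, at 0.696 (0.503 to 0.964), and Lamb1, at 0.684 (0.480 to 0.977), no longer reached 1.5-fold. Oligodendrocyte markers in neurons, at 257 CPM in the core and 2089 CPM in the distal library, moved with the Lama2 difference, and their part in it was not tested.

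**Figure D5:**
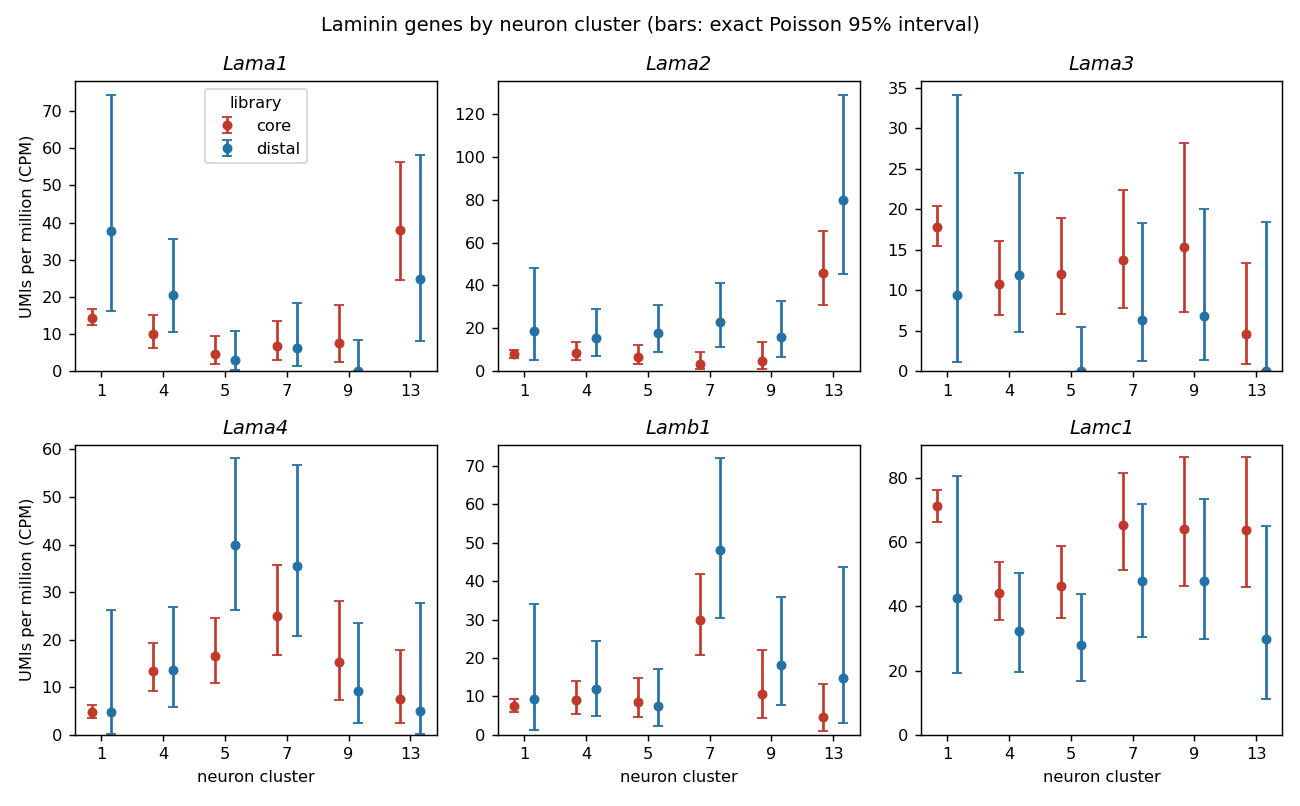
CPM of 6 laminin genes in the 6 neuron clusters with at least 50 nuclei in both libraries, core (red) left of distal (blue), with exact Poisson 95% intervals. In the core, cluster 13 is highest for Lama1 (38.1 CPM) and Lama2 (45.7 CPM) and cluster 7 for Lamb1 and Lama4 (24.9 CPM).

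Genes that work with laminin were read in 5 lists, 78 genes in all, by the rule used for the members. A list gene under 10 CPM in neurons was thus counted only through the other class and could not be called lower. This held for the leading genes Fbln1, Hspg2 and Col4a6 below. A list gene under 10 CPM in the other class could not be called higher. Of 20 other basement membrane genes, 13 of 18 counted were higher in core fibroblasts than in core neurons and 14 of 19 in distal ones, and 0 were lower in either. Their median log2 ratio was 3.62 and 2.94, beside 0.27 and 0.39 over all counted genes. Of all counted genes, 13.1% were higher and 3.78% lower in the core comparison, and 29.0% and 13.7% in the distal one. The distal list was led by Fbln1 (fibulin 1) at 51.2 CPM in fibroblasts and 0.306 CPM in neurons, Hspg2 (perlecan, the heparan sulfate proteoglycan of basement membranes) at 93.2 CPM and 0.918 CPM, and Col4a6 (a collagen IV chain) at 110 CPM and 2.14 CPM. In distal endothelium 8 of 13 were higher (median log2 ratio 1.79, beside 0.39 over all counted genes), led by Hspg2 at 59.4 CPM and Nid2 (nidogen 2, which links laminin to collagen IV) at 42.4 CPM. In distal astrocytes 5 of 12 were higher and 5 lower (median 0.15, beside 0.25), with Col4a5 (another collagen IV chain) 13.4-fold (7.52 to 25.8) and Sparc, a collagen-binding matricellular protein, 8.68-fold (5.91 to 13.1) higher, and Col18a1, the endostatin precursor, at 0.200 (0.0841 to 0.409). Of all counted genes, 18.9% were higher than in neurons in distal endothelium, and 26.9% in distal astrocytes, where 15.4% were lower.

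Laminin receptors divided by class. Of 12 integrin genes, 8 of 10 counted were higher in distal fibroblasts than in distal neurons, 6 of 11 in distal endothelium and 8 of 10 in distal astrocytes, where 1 was lower. Of all counted genes, 29.0%, 18.9% and 26.9% were higher in these comparisons, and 13.7%, 8.24% and 15.4% lower. The integrin medians were 2.0, 2.28 and 1.88 on the log2 scale, beside 0.39, 0.39 and 0.25 over all counted genes. Itga6, an alpha subunit of laminin-binding integrins, was 40.9-fold (22.0 to 77.4) higher in distal endothelium, at 238 CPM, and 21.7-fold (13.4 to 37.0) higher in distal astrocytes, at 126 CPM, against 5.81 CPM in distal neurons. Itga1, of the integrin that binds collagen and laminin, was 135-fold (58.8 to 360) higher in distal endothelium, at 288 CPM. Of the 22 dystroglycan complex genes, 3 of 17 counted were higher and 2 lower in distal fibroblasts, 1 of 17 higher and 5 lower in distal endothelium, and 5 of 18 higher and 3 lower in distal astrocytes. The shares called higher lay below the 29.0% and 18.9% of all counted genes in fibroblasts and endothelium, and close to the 26.9% in astrocytes. Of the shares called lower, that of endothelium lay above its 8.24% over all counted genes. Those of fibroblasts and astrocytes were close to their 13.7% and 15.4%. The medians were -0.04, -0.22 and 0.12, beside 0.39, 0.39 and 0.25. Utrn (utrophin, which ties dystroglycan to actin) was higher in all of these, at 380 CPM in fibroblasts, 1417 CPM in endothelium and 582 CPM in astrocytes, against 158 CPM in neurons. Sgcz and Sgcd, sarcoglycan genes, were lower in all of them.

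Matrix enzymes and inhibitors, 13 genes, were higher in 8 of 8 counted in distal fibroblasts, 4 of 6 in distal endothelium and 4 of 6 in distal astrocytes, each over distal neurons, with 0 lower and medians of 1.99, 1.95 and 1.22. Over all counted genes 29.0%, 18.9% and 26.9% were higher and 13.7%, 8.24% and 15.4% lower, with medians of 0.39, 0.39 and 0.25. Mmp14, a membrane-bound matrix protease, was 37.9-fold (11.1 to 200) higher in distal fibroblasts, and Adamts9, a secreted protease, 14.2-fold (10.4 to 19.7) higher in distal astrocytes, at 213 CPM. Of the 11 other receptors and laminin-like genes, 4 of 10 counted were higher and 3 lower in distal fibroblasts (median 0.26), 5 of 10 higher and 2 lower in distal endothelium (0.69), and 4 of 8 higher and 1 lower in distal astrocytes (0.43). The same shares and medians over all counted genes apply, and the fibroblast median lay below theirs. Within the list, Ntn1 (netrin 1, whose amino-terminal part resembles that of laminin) was 35.4-fold (19.5 to 69.5) higher in distal fibroblasts. Between the regions, 3 of 19 basement membrane genes and 3 of 12 integrins were lower in core than in distal fibroblasts, with medians of -0.49 for each list beside -0.04 over all counted genes, among them Hspg2 at 0.147 (0.0174 to 0.559) and Itgav at 0.357 (0.126 to 0.822). Over all counted genes 6.18% were lower in that comparison. The genes higher in core fibroblasts on these lists were Sgcz, Sgcd, Sv2b and Sv2c, which were also higher in distal neurons than in distal fibroblasts.

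The genes most like each member were found over 12 profiles, each 1 class in 1 library with at least 50 nuclei, among 11583 genes. Pearson's r of log2(CPM + 5) was highest with Marveld1 for Lama1 (0.92), Add3 for Lama2 (0.93), Slc16a12 for Lama4 (0.92) and Rhoj for Lamc1 (0.90). For Lama3 it was 0.86 with Zfp763, and for Lamb1 0.86 with Asb18. These r values describe 12 profiles that share libraries, and Lama5, Lamb2 and Lamc3 had under 100 UMIs in the named classes and were not matched.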

How the data were processed

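Single-nucleus RNA of 2 libraries was analysed from the deposited matrices, which hold unnormalised UMI counts of each gene in each barcode, written by Cell Ranger 7.1.0 per the file headers. Both mm10 and GRCh38 stand in the submitters' processing notes, with no role stated, and the labels do not say whether intronic reads were counted. Of the features, 99.8% occur in GENCODE M21.

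Barcodes were removed below 300.0 genes or above 5% mitochondrial UMIs (2 in the core library and 9 in the distal). Scrublet called 0 doublets in both libraries and was treated as not having worked, so doublets were left in. Clustering used scanpy 1.11.5 and leidenalg 0.10.2 in Python 3.11.15 (2000 variable genes without the laminin and partner genes, 40 components, 15 neighbours, resolution 1.0, 28 clusters). Clusters took the class of their highest marker score. Clusters that were background-like, blood-rich, mixed or led by markers of another class stayed unnamed, by rules set after the data had been seen.

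Class sums were scaled to CPM, with exact Poisson, Clopper-Pearson and conditional 95% intervals (scipy 1.17.1). A 0 was given the limit that 3 counts allow. From each partner list and contrast at most 3 genes per direction, those with the largest ratios among the genes called, could be named. Members, lists and rules were chosen with earlier results of these data known. Alternatives covered clustering, classing, thinning, thresholds and scaling, the last with edgeR 4.0.16 TMM factors. No model across genes was fitted. Some items are not reported here.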

Additional observations from a re-analysis of the deposited data

Results flagged for a closer look

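Lamc1 was called in opposite directions between the regions in different classes. Core over distal it was 0.613 in fibroblasts and 1.66 in neurons. The fibroblast call was lost per UMI of the fibroblast markers (0.815) and within cluster 12 (0.664, 0.399 to 1.05). The neuronal call was lost at a resolution of 2.0 (1.24) and with each nucleus classed on its own (1.13). The difference between the classes was not tested, since each region has 1 library.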

How the results depend on the processing

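No paired analysis was possible because each region has 1 library, and none could be left out. Of the counts of members called, 195 kept within 1.5 times their value and 19 moved. Of the ratios, 862 kept their call or stayed within their interval, 48 lost the call, 8 gained it, 33 moved and 7 turned direction.

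With each nucleus classed on its own, 4 members were higher in endothelium than in neurons in the core and 4 in the distal library, 0 were lower in distal astrocytes, 1 was higher in core than in distal endothelium and 0 in core neurons. Lama1 in core fibroblasts over neurons was then 0.614, Lama3 in distal fibroblasts over neurons 0.770 and Lamb1 in neurons, core over distal, 1.04. At a resolution of 2.0, 1 member was lower in distal astrocytes than in neurons and 0 were higher in core neurons. Without the highest 5% of doublet scores, 1 member was higher in core endothelium. Thinned to 1000 UMIs, 3 members were higher in core fibroblasts than in neurons, where Lama1 and Lamb2 had 0 UMIs (ratios of 0), 1 was lower in distal astrocytes, 1 lower in core fibroblasts and 1 higher in core neurons. With no CPM minimum, 4 members were higher in distal astrocytes than in neurons and 5 lower in core neurons. At 2-fold, 1 member was lower in core fibroblasts and 1 higher in core neurons. The shares over all genes at these settings are not given. Whether members lost or gained calls more than other genes therefore cannot be told. The cause of these changes was not tested.

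Some alternatives were added after the data had been seen. Per UMI of the class's own markers, 1 member was lower in core fibroblasts. Within neuron clusters, 1 was lower in core neurons. No share over all genes is given for these alternatives either. Without endothelial nuclei that held a mural UMI, 4 were higher in core endothelium, Lamc1 was 0.805 and Lamc3 had 0 UMIs (a ratio of 0). Scaling by TMM shifted every log2 ratio over neurons by -0.33 (fibroblasts), -0.47 (endothelium) and -0.30 (astrocytes) in the core and by -0.43, -0.54 and -0.26 in the distal library. The core over distal ratios shifted by -0.05 in fibroblasts, -0.02 in endothelium, -0.18 in astrocytes and 0.14 in neurons. With TMM scaling 87 ratios kept their call or stayed within their interval, and 3 lost the call. Depth limits core astrocytes, with 0 to 13 UMIs a member, and endothelium, with 1 to 18.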
